A study of Danio rerio with 3 samples.

Results

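Zebrafish embryos at 5 hours post fertilisation (hpf), the late blastula, were compared after a short bath of the eggs in cortisol or in ethanol vehicle. This comparison is 1 of 3 samples in the series, chosen by its labelled stage; the others were taken at 12 and 24 hpf. Cortisol-treated eggs received 13.8 µM (5 mg/L) of the hormone in fish water from 0 to 2 hpf, and vehicle eggs received 2 ml of absolute ethanol per litre over the same time. Both groups were wild type, were obtained from pet-shop fish, and were kept at 28.5 °C until they were fixed. RNA was taken from whole embryos, so fewer cells of a type and less RNA per cell cannot be told apart. Cortisol RNA was labelled with Cy5 and vehicle RNA with Cy3 on a 2-colour oligonucleotide array, with no exchange of the dyes. The labels give 4 replicates at this stage, while the files used here hold 1 set of values, so no spread between batches of embryos and no p-value can be given.

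Cortisol is the main glucocorticoid of fish. It enters cells and binds the glucocorticoid receptor, a transcription factor held in the cytoplasm by heat shock protein chaperones, which then moves to the nucleus and raises or lowers the transcription of target genes. A zebrafish egg starts with maternal cortisol and maternal messenger RNA, that of the receptor included, and the embryo's own genome becomes widely active shortly before the late blastula. At that stage the embryo consists of deep cells, an outer enveloping layer and a yolk syncytial layer, and germ plasm from the egg marks the future germ cells.

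Levels below are normalized intensities of each dye, in arbitrary units, set side by side between the dyes for a gene. Since the dyes were not exchanged, a difference between dyes and one between groups cannot be told apart. A log2 ratio above 0 means a higher level in cortisol-treated embryos. The offset added before the logarithm draws the ratios of dim genes toward 0. Beside this ratio, computed from the scanner signals, the ratio deposited by the authors is given on the same log2 scale. The array held 27216 genes, of which 19309 exceeded the negative controls in both dyes and had a ratio. Their median level was 182 in cortisol-treated and 170 in vehicle embryos, and their log2 ratios had a median of 0.01, with the 5th percentile at -0.33 and the 95th at 0.46. Different probes of a gene had a pooled SD of 0.21 (log2), which measures disagreement between probes and not between embryos.

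Markers of the stage were present in both groups. All 10 deep cell markers, all 9 enveloping layer markers on the array and all 7 germ plasm markers on the array exceeded the controls in both dyes, as did 8 of 10 yolk syncytial layer markers. Median vehicle signals of the late lists were close to the control limit of 51.4, at 59.4 for muscle contractile genes, 54.4 for lens crystallins, 60.2 for blood genes and 68.8 for neuronal genes, although single members such as the highest muscle gene reached 8440.8.

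At least 2-fold higher levels in cortisol-treated embryos were seen for 110 genes, 0.57% of those measured, and at least 2-fold lower levels for 27 genes, 0.14%, together 137 genes or 0.71%. At 1.5-fold there were 568 higher genes, 2.94%, and 180 lower genes, 0.932%. In the deposited ratio 589 genes (3.05%) were 2-fold higher and 380 (1.97%) lower. The share of higher genes among the 137 was 80.3%, and it depended on the processing, being 97.7% (428 higher and 10 lower) with centring on the median in place of loess, 68.3% (41 and 19) with the background fitted on every spot, and 60.8% in the deposited ratio. Most differences were small: 81 of the 110 higher genes lay under a log2 ratio of 1.5, 17 between 1.5 and 2, and 12 above 2. Of the 27 lower genes 22 lay between -1 and -1.5, 4 between -1.5 and -2, and 1 below -2. A single measured probe stood behind 80 of the higher and 21 of the lower genes. Of the 30 higher genes with more probes, 28 had the same sign in every probe and 11 were 2-fold in every probe. Of the 6 lower genes with more probes, 5 were 2-fold in every probe. All 110 higher and all 27 lower genes had the same sign in the deposited ratio, as had 89.2% of all measured genes. Of them 91 (0.471% of measured genes) and 23 (0.119%) were also 2-fold in the deposited ratio. Both ratios come from the same sample, so this is no independent check.

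The 2 sets differed in brightness. Higher genes had a median level of 387 in cortisol-treated and 147 in vehicle embryos, so in vehicle they were dimmer than the typical gene. Lower genes had a median level of 399 in cortisol-treated and 973 in vehicle embryos, so in vehicle they were among the brighter genes. With all genes split by mean level into 5 bins of equal size, from dim to bright, the higher genes numbered 0, 8, 52, 35 and 15, and the lower genes 0, 2, 2, 10 and 13. Since the ratio chose both sets, these levels are descriptions.

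**Figure D1:**
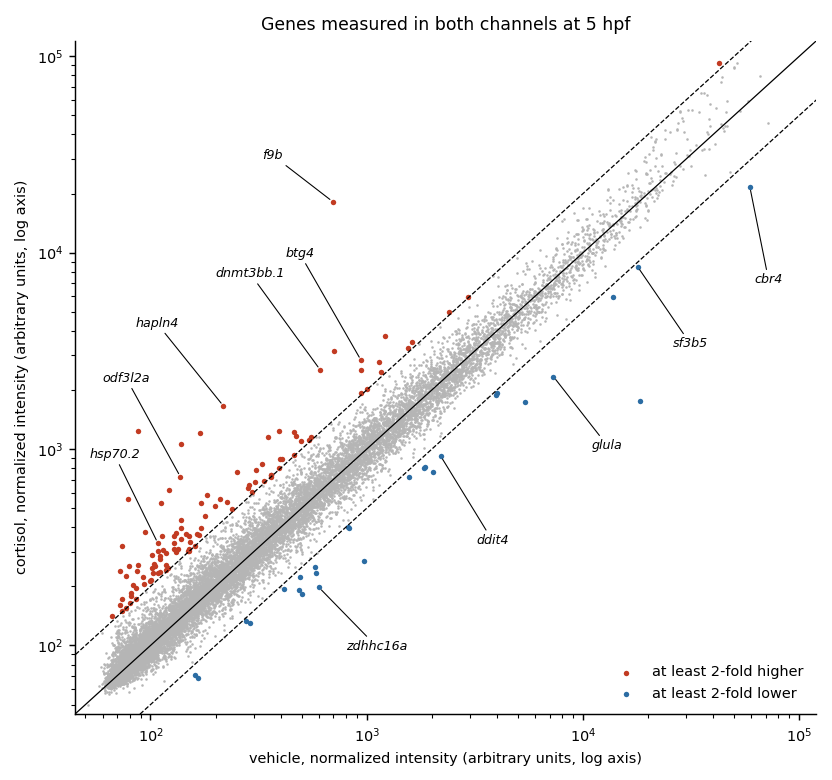
Each point is a gene measured in both dyes at 5 hpf, with its level in vehicle embryos on the x axis and in cortisol-treated embryos on the y axis (normalized intensity, arbitrary units, log axes). The solid line marks equal levels and the dashed lines a 2-fold difference; the 110 higher genes (red) sit mostly at low vehicle levels, with a median of 147, and the 27 lower genes (blue) at high ones, with a median of 973.

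Among genes that were 2-fold higher in both ratios with all probes of one sign, 45 with a gene symbol qualified for naming and 19 of the largest are described. The largest was hapln4, which encodes a link protein that binds hyaluronan to proteoglycans in the extracellular matrix. Its level was 1658.6 in cortisol-treated and 217.3 in vehicle embryos, a log2 ratio of 2.93 (deposited 2.77), with its 2 probes at 2.15 and 3.71. The de novo DNA methyltransferase gene dnmt3bb.1 was at 2531.8 in cortisol-treated and 609.0 in vehicle embryos, a log2 ratio of 2.06 from 1 probe (deposited 1.78). It was the brightest of the 19 in cortisol-treated embryos. Few genes reached such ratios: among all measured genes the 99th percentile was 0.84.

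Genes for the cytoskeleton, its adaptors and vesicle traffic made up several of the 19. The gene odf3l2a, named for its likeness to outer dense fibre proteins of sperm tails, was at 722.4 in cortisol-treated and 137.5 in vehicle embryos (log2 ratio 2.39, deposited 2.70). The adaptor gene nck1a, whose mammalian counterpart links receptor tyrosine kinases to actin, was at 322.7 in cortisol-treated and 73.8 in vehicle embryos (2.13, deposited 3.85). It rested on 1 probe, whose vehicle signal of 53.6 was close to the control limit of 51.4. Ratios were 1.6 for micall2b (deposited 1.55), 1.36 for baiap2a, an actin and membrane regulator (1.37), 1.40 for the exocyst subunit gene exoc1 (1.30) and 1.32 for cstpp1, a gene of centriolar satellites (1.71). These genes were grouped by function after their values were seen.

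Signalling genes formed a further part of the 19. The S100 family gene s100a10b, partner of annexin in mammals, was at 361.9 in cortisol-treated and 113.2 in vehicle embryos, with 2 probes close together at 1.65 and 1.71. The protein kinase C gene prkcba had a log2 ratio of 1.48 (deposited 1.99), the G protein subunit gene gnb3b 1.32 (2.24), and the interleukin receptor gene il13ra2 1.37 (1.27). The gene for aanat2, the pineal enzyme of melatonin synthesis, was at 286.2 in cortisol-treated and 110.3 in vehicle embryos (1.38, deposited 1.76). Enzymes, inhibitors and chaperones completed the 19. The dehydratase gene tgds had 5 probes, from 0.87 to 1.78, around a mean of 1.48. The serpin gene serpinh2 had 1.54 (deposited 2.99), the elastase gene cela1.4 had 1.39 (1.74) and slx4ip, a gene of DNA repair in mammals, had 1.46 (2.48). The 1 probe of serpinh2 had a vehicle signal of 55.8, close to the control limit of 51.4. The transglutaminase gene tgm2b averaged 1.29, but its 3 probes ran from 0.16 to 2.88, the widest disagreement among these 19. The neighbouring gene quob was 2-fold higher as well, at 1.2, and this was the single pair of adjacent genes on the chromosome to be so among 12066 pairs of measured neighbours.

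The 10 genes that qualified as lower were led by glula, a glutamine synthetase gene whose mammalian counterpart is a classical glucocorticoid target. Its level was 2336.8 in cortisol-treated and 7303.5 in vehicle embryos, a log2 ratio of -1.64 (deposited -2.27), with 2 probes at -1.80 and -1.49. The gene ddit4 encodes an inhibitor of the growth kinase mTORC1 and is raised by glucocorticoids in mammals. Here it was at 922.5 in cortisol-treated and 2195.6 in vehicle embryos (-1.25 from 1 probe, deposited -1.83). Both genes were thus lower, where mammalian glucocorticoid treatment is known for raising them. The other glutamine synthetase gene of the target list, glulb, was brighter and differed little. It was at 24620.9 in cortisol-treated and 26354.9 in vehicle embryos (-0.10, 5 probes from -0.43 to 0.23).

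Of the remaining lower genes, 3 encode reductases or esterases. The gene cbr4, a mitochondrial carbonyl reductase, was the brightest, at 21623.8 in cortisol-treated and 59075.5 in vehicle embryos (-1.45, deposited -1.10). The esterase gene iah1 was at 764.3 in cortisol-treated and 2022.1 in vehicle embryos, with probes at -1.41 and -1.39. The carbonyl and xylulose reductase gene dcxr was at 802.3 in cortisol-treated and 1840.5 in vehicle embryos (-1.20, deposited -1.66). Genes acting on RNA were also present. The ribonuclease gene rnaset2 had 5 probes from -1.27 to -0.75, and alkbh5, which encodes an RNA demethylase, had 2 at -1.11 and -1.01. The splicing factor subunit gene sf3b5 was at 8478.8 in cortisol-treated and 17888.4 in vehicle embryos (-1.08, deposited -1.30). For the palmitoyltransferase gene zdhhc16a the ratios were -1.60 and, deposited, -4.15, and for the galectin gene lgals1l1 they were -1.10 and -2.72.

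**Figure D2:**
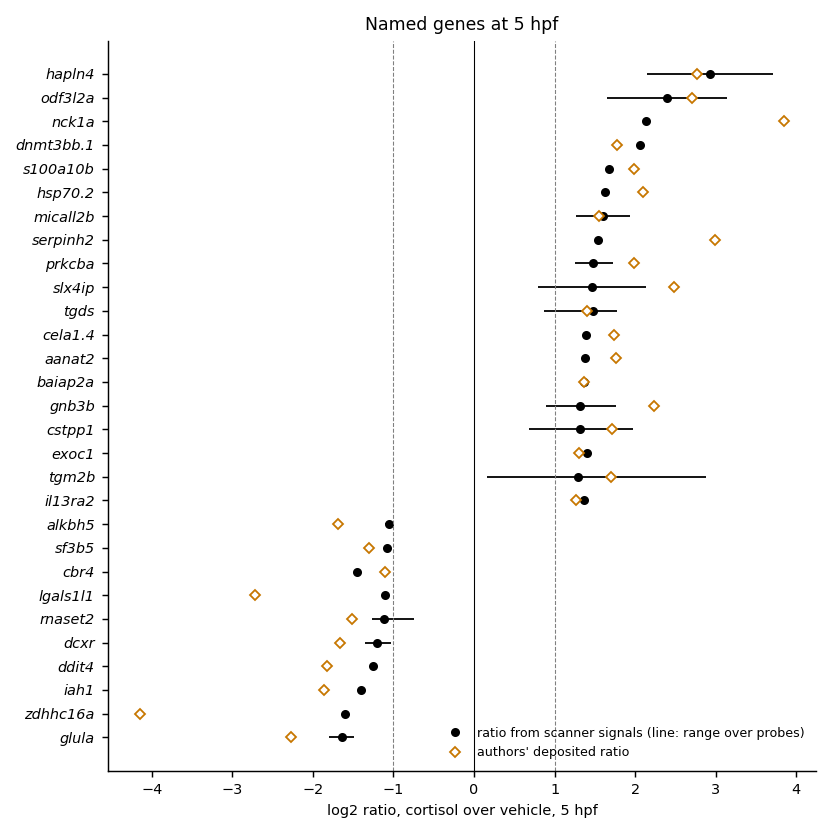
Log2 ratio of cortisol over vehicle at 5 hpf for the 19 named higher genes and the 10 named lower genes, one per row. Black points are ratios from scanner signals with a line over the range of the gene's probes, open diamonds are the authors' deposited ratios, and dashed lines mark a 2-fold difference; the deposited values of nck1a (3.85) and zdhhc16a (-4.15) lie farthest from the black points.

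Close to the threshold, trim35-7 at 1.00, slc16a12b at 1.002 and nr1d2a at 1.008 were the genes with symbols just inside it on the higher side, and tdp1 at 0.998 and tmod2 at 0.977 were just outside. On the lower side alkbh5, sf3b5 and lgals1l1 (-1.104) were just inside, and gpr137 at -0.984, chrna5 at -0.973 and ascc1 at -0.943 just outside.

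Of the 2-fold genes, 4 higher and 4 lower ones were under 1.5-fold in the deposited ratio and have no settled size. The coagulation factor gene f9b had the largest ratio of all, 4.71, but 0.43 in the deposited ratio. Its median signals were 25387.8 in red (cortisol) and 507.3 in green (vehicle), whereas the processed signals deposited for the same spot were 26280 and 8000, a log2 ratio of 1.72. The fibrinogen gene fgg, another coagulation gene, went the other way at -1.13 (deposited -0.30), with processed signals at -1.19. Likewise grid2ipb (1.99, deposited 0.31), fat3a (1.63, deposited 0.51), slc22a7b.1 (-1.86, deposited -0.55) and wdr48a (-1.63, deposited -0.44) had processed signals whose ratios, 3.86, 2.12, -2.18 and -1.83, were larger than those from the scanner signals. The remaining pair were zgc:195170 (1.08, deposited 0.50) and a transcript with no gene symbol (-3.38, deposited -0.57), the largest lower ratio measured. The cause of these gaps was not tested.

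The receptor and its known targets were examined next, as 2 of 28 gene lists chosen with earlier results of these data known. The glucocorticoid receptor gene nr3c1 was at 114.6 in cortisol-treated and 99.5 in vehicle embryos, a log2 ratio of 0.20 over 5 probes from 0.04 to 0.37. The mineralocorticoid receptor gene nr3c2 and the cortisol-inactivating enzyme gene hsd11b2 did not exceed the negative controls in either dye. Of the 15 measured genes of the receptor and its chaperones, 1 was 2-fold higher and none lower, beside 0.57% and 0.14% of all genes, with a median of -0.04 (0.25 with median centring, where all genes had 0.16). That gene was the inducible chaperone hsp70l, at 235.0 in cortisol-treated and 102.2 in vehicle embryos (1.2 from 1 probe, deposited 1.73). The constitutive chaperone gene hspa8, in contrast, had a ratio of -0.60 over 11 probes that all lay below 0, from -0.78 to -0.37.

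None of the 29 measured glucocorticoid target genes was 1.5-fold higher, a size reached by 2.94% of all genes, and 2 were 2-fold lower, glula and ddit4, beside 0.14% of all genes. In the deposited ratio 1 was 2-fold higher and 2 lower, beside 3.05% and 1.97% of all genes. Several members, such as fkbp5, pck1, lpin1a, cebpd and errfi1a, fell in the dimmest of the 5 bins, where no gene was 2-fold either way. The list's median was -0.02 (deposited -0.11), beside 0.01 for all genes, and with median centring it was 0.07, beside 0.16. Targets that respond in many vertebrate tissues had small ratios. The leucine zipper gene tsc22d3 was at 245.6 in cortisol-treated and 193.5 in vehicle embryos (0.34, 5 probes from 0.07 to 0.64). The clock gene per1a was at 0.18, and the receptor co-chaperone gene fkbp5 and the transcription factor gene klf9 were at 0.02 and 0.01, both dim, with fkbp5 at 74.1 in cortisol-treated and 73.1 in vehicle embryos. The annexin gene anxa1a was at 4042.8 in cortisol-treated and 5991.2 in vehicle embryos (-0.57), and the binding protein gene igfbp1a was at 0.48 (deposited 1.41). The 30 measured genes of steroid synthesis and inactivation included no gene past 1.5-fold, beside 2.94% of all genes higher and 0.932% lower. Among them hsd3b2 was at -0.47 and cyp11a1.1, the enzyme of the first step, at -0.36, while nr5a1a was at 0.36 and hsd17b7 at 0.34. Of these 30 genes 18 lay above 0, with a median of 0.03 (0.18 with median centring).

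Stress genes differed within the list. Of 29 measured heat shock genes, 2 were 2-fold higher, hsp70.2 and hsp70l, a size reached by 0.57% of all genes, and the median was -0.04 (0.19 with median centring, where all genes had 0.16). The gene hsp70.2 was at 331.6 in cortisol-treated and 108.2 in vehicle embryos (1.62, deposited 2.1), and hsp70.3 was at 279.6 in cortisol-treated and 160.1 in vehicle embryos (0.80), with probes from 0.12 to 1.29. Both hsp70.2 and hsp70l rested on 1 probe, with vehicle signals of 77.5 and 74.0, beside the control limit of 51.4. These genes belong to 1 family, so their probes may bind each other's RNA and the ratios may not be separate. Their sequences were not compared here. The mitochondrial co-chaperonin gene hspe1 was at 1025.9 in cortisol-treated and 581.9 in vehicle embryos (0.82). The 28 measured endoplasmic reticulum stress genes held no 2-fold member, with dnajc3a at 0.60 and xbp1 at -0.49. Over all genes 0.57% were 2-fold higher and 0.14% lower. The 37 measured antioxidant genes held no 2-fold member either, with gsto2 at -0.69 and sod3a at 0.67. In the deposited ratio 1 of them was 2-fold lower, beside 1.97% of all genes. Of 36 measured apoptosis genes 1 was 2-fold higher, beside 0.57% of all genes, and the median was 0.02 (0.28 with median centring). That gene was mcl1b, a survival factor, at 935.6 in cortisol-treated and 460.0 in vehicle embryos (1.02, probes at 1.00 and 1.05). In the same list casp6a was at 0.78 and sesn3 at -0.68. Of 41 measured interferon and NF-kB genes 1 was 2-fold higher, beside 0.57% of all genes, and the median was 0.02 (0.08 with median centring). That gene was the interferon regulator irf7, at 300.0 in cortisol-treated and 130.6 in vehicle embryos (1.2), while nfkbie was at -0.58. In the deposited ratio 1 gene of this list was 2-fold higher and 1 lower, beside 3.05% and 1.97% of all genes. Of 33 measured clock genes, aanat2 and nr1d2a (1.01, deposited 2.88) were 2-fold higher, beside 0.57% of all genes, while bmal2 was at -0.53. The 1 probe of nr1d2a had a vehicle signal of 52.5, close to the control limit of 51.4. In the deposited ratio 2 clock genes were 2-fold higher and 2 lower, beside 3.05% and 1.97% of all genes.

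Early patterning genes contained no 2-fold member, beside 0.57% of all genes 2-fold higher and 0.14% lower. In the deposited ratio 1 Nodal, 1 BMP and 2 Wnt pathway genes were 2-fold lower, as were 1.97% of all genes. Of 32 measured genes of Nodal signalling and mesendoderm, 22 lay below 0, with a median of -0.13 (deposited -0.24), but 0.16 with median centring, the same as the median of all genes there. The mesoderm factor tbxta was at 4824.9 in cortisol-treated and 7604.9 in vehicle embryos (-0.66, 1 probe). The paraxial mesoderm factor msgn1 was at -0.57 with 5 probes from -0.69 to -0.45, and the endoderm factor gata5 was at -0.50. The ventral homeobox gene eve1 had the largest ratio from scanner signals among patterning genes, though not in the deposited ratio, at 1007.8 in cortisol-treated and 1837.6 in vehicle embryos (-0.87, deposited -1.04). Of 18 dorsal organizer genes 12 lay below 0, with a median of -0.12 (0.13 with median centring), dkk1b at -0.44 and chrd at -0.30. Of 23 genes of FGF and retinoic acid signalling 16 lay below 0, with a median of -0.11 (0.08 with median centring), dusp6 at -0.48 and fgf8a at -0.37. Wnt and BMP pathway lists had medians of -0.01 each (0.17 and 0.25 with median centring), with sp5l at -0.69 and cdx4 at -0.59 (both -1.23 in the deposited ratio) but vangl2 at 0.55 and wnt8a at 0.49. Over all measured genes 53.8% lay above 0, and 51% in the deposited ratio.

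Genome activation factors went both ways. The pluripotency factor pou5f3 was at 6480.0 in cortisol-treated and 9555.4 in vehicle embryos (-0.56, probes at -0.73 and -0.39), and sox2 was at -0.62 (deposited -1.34). The factor nanog was at 5603.6 in cortisol-treated and 4282.5 in vehicle embryos, a ratio of 0.39 with 3 probes above 0. The 25 measured members of the list had a median of 0.01.

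Genes of the outer and yolk layers had small negative medians, and with median centring, where the median of all genes was 0.16, the outer layer genes lay above it and the yolk layer genes below it. Of the 9 enveloping layer markers 8 lay below 0, led by the keratin gene krt5 at 1268.3 in cortisol-treated and 1964.6 in vehicle embryos (-0.63, 6 probes from -0.92 to -0.32). The median of these markers was -0.22 (deposited -0.27), but 0.30 with median centring. The longer list of 38 epidermal genes had a median of -0.10 (deposited -0.23, with median centring 0.21). In it the keratin krt94 was higher, at 785.8 in cortisol-treated and 492.5 in vehicle embryos (0.67), as was the tight junction gene cldnb (0.58). Of 25 measured genes of the yolk syncytial layer and lipid transport, 18 lay below 0, with a median of -0.10 (deposited -0.24, with median centring 0.04). Its homeobox regulator mxtx2 was at 4629.0 in cortisol-treated and 2635.5 in vehicle embryos (0.81), while the lipoprotein gene apoc1 was at -0.52 and gata6 at -0.48. In this list 1 gene was 2-fold lower, fgg (-1.13, deposited -0.30), beside 0.14% of all genes. In the deposited ratio 1 gene, tfa (-1.35), was 2-fold lower, beside 1.97% of all genes.

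Germ plasm and maternal transcripts were described as 2 lists. Of 23 measured germ plasm and germ cell genes 18 (78.3%) lay above 0, beside 53.8% of all genes, with a median of 0.11 (deposited 0.17; with median centring 0.38, where all genes had 0.16). The germ cell gene nanos3 was at 1775.9 in cortisol-treated and 1194.4 in vehicle embryos (0.57). The Tudor domain gene tdrd9 was at 980.6 in cortisol-treated and 600.1 in vehicle embryos (0.71), and ca15b was at 0.55 with 6 probes from 0.34 to 0.73. Several other members were near 0 or lower, with ddx4 at -0.20, tdrd6a at -0.14, dnd1 at 0.02 and piwil1 at 0.05. The 7 measured germ plasm markers had a median of 0.05 (deposited 0.01, with median centring 0.36), with 5 above 0. Among 37 oocyte and maternal transcripts 20 lay above 0 and 17 below, a share above 0 of 54.1% beside 53.8% of all genes, with a median of 0.05 (deposited 0.00; with median centring 0.46, where all genes had 0.16). In this list 1 gene was 2-fold higher and 4 were 1.5-fold higher, sizes reached by 0.57% and 2.94% of all genes. A 1.5-fold lower level was seen for 1 gene, beside 0.932% of all genes. In the deposited ratio 1 was 2-fold higher and 1 lower, beside 3.05% and 1.97% of all genes. The antiproliferative gene btg4, which in mammals promotes decay of maternal messenger RNA, was at 2832.2 in cortisol-treated and 941.0 in vehicle embryos (1.59, deposited 1.18). The maternal gene org was at 9368.1 in cortisol-treated and 4936.0 in vehicle embryos (0.92) and the oocyte growth factor gene bmp15 at 0.75, while spo11, a gene of meiotic recombination, was at -0.74.

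Housekeeping lists differed in their spread. No member of the 83 measured ribosomal protein genes, the 54 proteasome genes or the 35 glycolysis and gluconeogenesis genes reached 1.5-fold. Examples were rplp0 at -0.36 and rpl29 at 0.35, psmg1 at -0.43 and psme1 at 0.41, and tpi1b at -0.54 and gys1 at 0.38. The medians of these lists were -0.04, -0.05 and -0.08. With median centring they were 0.48, 0.37 and 0.09, where all genes had 0.16. Over all genes 2.94% were 1.5-fold higher and 0.932% lower. Among 88 respiratory chain genes ndufs8b was at 0.88 (deposited 0.05) and atp5f1b at -0.59. Of 51 cell cycle genes the checkpoint kinase chek2 was at 0.82 and cdc20 at -0.54. Spliceosome genes included sf3b5, already named, and prpf31 at -0.61. The other members of the chromatin list lay far from dnmt3bb.1, the next being hdac3 at 0.49 and dnmt3aa at 0.43. Of 15 matrix proteases and inhibitors mmp13a was at 0.58, and of 37 adhesion genes the integrin gene itga5 was at 0.74. Together the 28 lists held 967 measured genes, of which 9 (0.931%) were 2-fold higher and 4 (0.414%) lower, beside 0.57% and 0.14% of all genes. Since the lists were chosen with earlier results of these data known, these shares are descriptions.

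**Figure D3:**
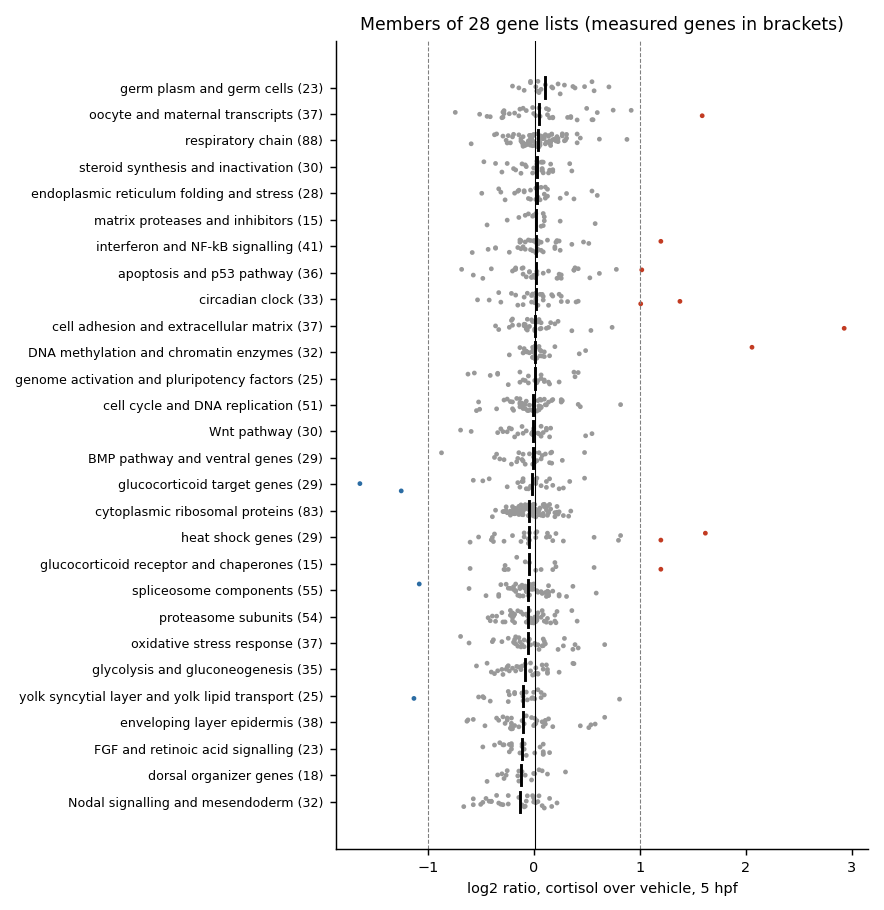
Log2 ratio of cortisol over vehicle at 5 hpf (x axis) for the measured members of 28 gene lists, one list per row, ordered by median (black bar), with the number of measured members in brackets. Members that were 2-fold higher are red and 2-fold lower blue, dashed lines mark 2-fold; medians run from -0.13 for Nodal signalling and mesendoderm to 0.11 for germ plasm and germ cells, and with median centring these are 0.16 and 0.38, beside 0.16 for all genes.

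Some genes exceeded the controls in 1 dye and have a bound in place of a ratio. Of 966 genes seen in cortisol-treated embryos only, 2 (0.207%) had a bound of 2-fold or more, and of 798 seen in vehicle embryos only, 1 (0.125%) had. The Rab regulator gene rabgap1l2 was at least 5.25-fold higher, with a level of 392.6 in cortisol-treated embryos (deposited log2 ratio 5.12). The steroid-binding globulin gene shbg was at least 1.68-fold higher and cnmd, a cartilage gene, at least 1.6-fold higher, and the odorant receptor or70a11 and the amine receptor taar13e reached bounds of 1.58 and 1.5. In the other direction il2rgb, an interleukin receptor subunit gene, was at least 3.87-fold lower, with a level of 219.1 in vehicle embryos (deposited -2.27). The next bounds were 1.24 for cndp1, 1.21 for rnasel3, 1.18 for cmya5 and 1.15 for hoxa5a. Without exchanged dyes these bounds, like all ratios given above, are open to dye bias.

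Values of the same genes at 12 and 24 hpf come from other embryos and other arrays, and they were not used to choose the genes. The labels state 4 arrays at 5 hpf, 3 at 12 hpf and 1 at 24 hpf, with 1 set of values each. The 5 hpf values are read here as a mean over arrays, so precision may differ between the stages. Of the 110 higher genes 80 were measured in both dyes at 12 hpf, where 41 (51.2%) lay above 0, beside 43.4% of all genes. At 24 hpf 74 were measured and 27 (36.5%) lay above 0, beside 44.7% of all genes. Of the 27 lower genes 12 were measured at each later stage, with 5 above 0 at 12 hpf and 7 at 24 hpf. Among those measured at 12 or 24 hpf, none of the higher or lower genes was 2-fold in either direction. Of all genes, 0.526% at 12 hpf and 0.351% at 24 hpf were 2-fold higher, and 0.337% and 0.833% lower. The genes not measured at those stages have no ratio. Of the 19309 genes, 12172 were measured in both dyes at 12 hpf and 11399 at 24 hpf. Median signals of the enveloping layer markers in cortisol-treated and vehicle embryos were 15319.9 and 7973.5 at 5 hpf. They were 3452.2 and 40856.6 at 12 hpf, and 1442.0 and 15884.0 at 24 hpf. The offset draws dim ratios toward 0, and the part of this dimmer cortisol signal in the small later ratios was not tested. In the deposited ratio 3 of the 80 were 2-fold higher and 1 lower at 12 hpf (2.42% and 2.93% of all genes), and 1 of the 74 was higher and 3 lower at 24 hpf (3.13% and 2.60% of all genes).

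Named genes followed the same course. Of the 19 higher genes 14 were measured at 12 hpf, from -0.39 to 0.11, and 14 at 24 hpf, from -0.37 to 0.07. The methyltransferase gene dnmt3bb.1, at 2.06 at 5 hpf, was at -0.39 at 12 hpf and -0.20 at 24 hpf, and hapln4 was at 0.06 at 12 hpf. For odf3l2a the ratio at 24 hpf was -0.27, but -1.81 in the deposited values. Of the 10 lower genes 8 were measured at each later stage, from -0.42 to 0.25 at 12 hpf and from -0.46 to 0.29 at 24 hpf. The glutamine synthetase gene glula was at -0.42 at 12 hpf and -0.46 at 24 hpf (deposited -0.48 and -0.49). At 24 hpf zdhhc16a was at -0.14, but lower than glula in the deposited ratio, at -0.63. The ratio of ddit4 at 12 hpf was -0.39, and it was not measured at 24 hpf.

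**Figure D4:**
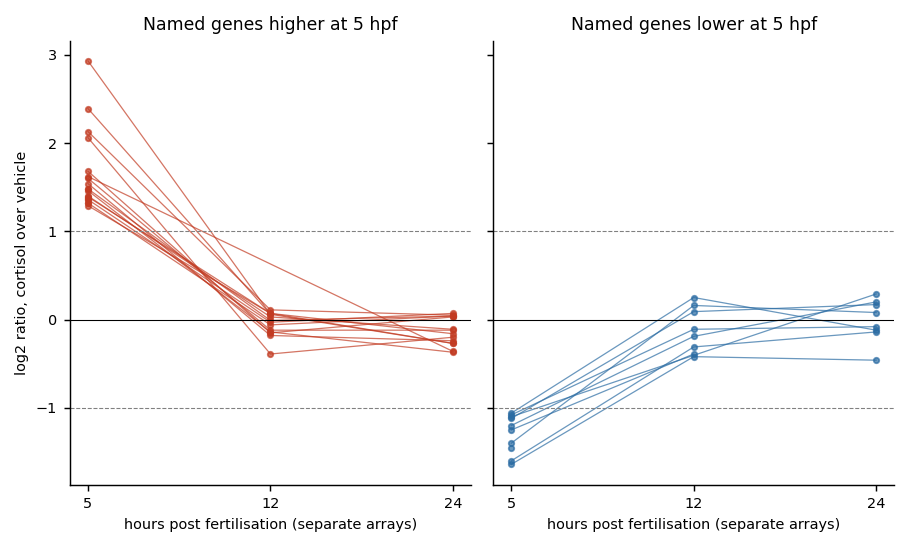
Log2 ratio of cortisol over vehicle (y axis) at 5, 12 and 24 hpf (x axis, separate arrays of different embryos) for the named higher genes (left) and lower genes (right), with lines joining the values of a gene where it was measured and dashed lines at 2-fold. At 12 and 24 hpf all values lie between -0.46 and 0.29.

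The brightness of these genes in vehicle embryos also differed by stage. The median vehicle signal of the lower genes ranked at percentile 87.6 of the array at 5 hpf, at 56.7 by 12 hpf and at 53 by 24 hpf. For the higher genes the percentiles were 59.8, 67.9 and 67.4, while the whole set measured at 5 hpf stood at 64.5, 63.6 and 62.5. The vehicle signal at 5 hpf is part of the ratio that chose the genes, so its share in this pattern was not tested.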

How the data were processed

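Total RNA (200 ng per sample, per the labels' protocols) was measured on 2-colour Agilent arrays. Median signal intensity and local background intensity per spot were deposited by the authors from Agilent Feature Extraction, per the submitters' processing notes, with the version not given in the sources used here. A log10 ratio (red over green) that the authors normalized was deposited too, rescaled here to log2, as were processed signals. At 5 hpf 1 set of values was used, which the labels describe as 4 replicates.

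Background was corrected with limma's normexp (offset 50), leaving out 12 spots whose background exceeded 2 times the median, followed by loess within the array with 1417 control spots at weight 0 (limma 3.58.1, R 4.3.3). Tables and figures used Python 3.11.15, pandas 2.3.3, numpy 2.4.6 and matplotlib 3.10.9. Spots of a probe, then probes of a gene, were averaged over probes that in both dyes exceeded a limit of mean plus 2 SD over 153 negative controls (limits 51.4 green and 126.6 red). Bounds for genes seen in 1 dye used channel values after loess. Names came from the RefSeq table of assembly GRCz12tu: 25258 probes matched by accession, 2766 by symbol, 1682 by synonym, and 13897 kept the file's name. The steps were tested on simulated data with changes placed only in probes above the median vehicle signal. That test did not cover changes in dimmer genes.

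With no replicate values there was no test, and calls are by size, 2-fold or 1.5-fold. Precision is limited by the number of arrays. The members and the gene lists were chosen with earlier results of these data known. Up to 20 genes per direction were named, having a symbol, 1 sign in all probes and 2-fold size in both ratios, ordered by the smaller ratio, with up to 4 members per list, the 5 largest bounds each way and 12 further genes of interest. For 1 gene that met the rule the result is not reported here. Genes with discordant ratios, at the threshold, or adjacent to a named gene were added after their values were seen. Alternatives changed the ratio, background correction, normalization, filters and probe summary. A planned search of promoter motifs was not analysed here.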

Additional observations from a re-analysis of the deposited data

How the results depend on the processing

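The counts of genes at least 2-fold higher and lower, 110 and 27, depended on the processing. The deposited ratio gave 589 and 380, an offset of 10 gave 256 and 56, and median centring gave 428 and 10. Fitting the background on every spot gave 41 higher genes (19 lower), and requiring 2 or more probes of 1 sign gave 28 and 6, where 4512 genes were counted. Under the other alternatives the counts ran from 89 to 114 higher and from 26 to 28 lower. The share of higher genes was 80.3%, against 97.7% with median centring, 68.3% with every spot and 60.8% in the deposited ratio. The 30 genes that met the naming rule by size reversed in no alternative, but the rule itself fixed the sign in the deposited ratio and over probes. They kept 2-fold size in 22 of 30 with median centring and 21 of 30 with every spot. Median centring put the median of all genes at 0.16 in place of 0.01, and the cause of the differences between settings was not tested. No paired analysis was possible because the stage has 1 set of values. Leaving out a replicate was not possible for the same reason.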

Other observations

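Genes were grouped, after their values had been seen, by the change in rank of their vehicle signal between 5 and 12 hpf. Of 2444 genes whose vehicle signal ranked at least 20 percentile points lower at 12 hpf, 19 were 2-fold higher at 5 hpf (0.777%) and 17 were 2-fold lower (0.696%). Of 15666 genes with a steady rank the numbers were 73 (0.466%) and 10 (0.0638%). Of 1199 genes that ranked at least 20 points higher at 12 hpf, 18 were 2-fold higher (1.5%) and 0 were 2-fold lower. This last group was dim, with a median vehicle level of 77.7, beside 208 for steady genes and 126 for those that fell. Few genes that dim could be called 2-fold lower. Among genes over the median mean level, 7 of 93 that rose were 2-fold higher (7.53%) and 0 lower. Of 956 that fell, 1.78% were higher and 1.57% lower, and of 8605 steady ones 0.628% and 0.116%. Thus 17 of the 27 lower genes came from the group whose vehicle signal ranked lower at 12 hpf, which held 2444 of the 19309 genes. The vehicle signal at 5 hpf enters both the rank and the ratio, and its part in these counts was not tested.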
